A study of Mus musculus with 6 samples.

Results

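The core and naive pluripotency transcription factors were examined in mouse embryonic stem cells (ESCs) with and without *Patz1*. The genes were the 10 symbols *Pou5f1*, *Sox2*, *Nanog*, *Klf2*, *Klf4*, *Klf5*, *Esrrb*, *Tfcp2l1*, *Tbx3* and *Zfp42*, chosen by name. They are 10 of the 23420 gene symbols in the count tables, of which 19404 had a count in at least 1 library. RNA-seq libraries came from E14 ESCs of 2 genotypes, 3 wild type (WT) libraries and 3 *Patz1* knockout (KO) libraries. All 6 came from undifferentiated ESCs kept in LIF and 2i, that is, in the presence of a MEK inhibitor and a GSK3 inhibitor. The KO had been made by CRISPR/Cas9 in the same parental line. Several KO clones were derived, and the clone or clones behind these libraries were not stated, so a difference due to *Patz1* and a difference between clones cannot be told apart. PATZ1 is a zinc finger protein that resembles the insulator protein MAZ, and the comparison addressed which genes change expression upon its loss.

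Naive ESCs renew through a small circuit of transcription factors that activate one another and, in many cases, themselves. OCT4 (encoded by *Pou5f1*) and SOX2 bind composite sites together, and with NANOG they form the core of the circuit. Around the core stand factors of the naive state. KLF4, KLF5 and TFCP2L1 are induced by LIF through STAT3, and TBX3 responds to LIF by another branch. ESRRB, KLF2 and TFCP2L1 are released from repression by TCF7L1 when GSK3 is inhibited. *Zfp42* encodes REX1, a marker that is lost early when cells leave the naive state.

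G-rich 8-base strings were looked for in the promoters of these genes, since PATZ1 and MAZ are described as binding G-rich sequence. RefSeq promoter windows of 300 bases on GRCm38.p6 were found for 8 of the 10 genes, 11 windows in all, and none was matched for *Klf5* or *Tbx3*. The 4 windows shown hold the G-rich strings or, for comparison, an octamer-like string of the kind that POU proteins bind. Capitals mark the matches, and each window reads 5′ to 3′ on the strand of its gene.
*Pou5f1* (chr17:35505782-35506081, plus strand): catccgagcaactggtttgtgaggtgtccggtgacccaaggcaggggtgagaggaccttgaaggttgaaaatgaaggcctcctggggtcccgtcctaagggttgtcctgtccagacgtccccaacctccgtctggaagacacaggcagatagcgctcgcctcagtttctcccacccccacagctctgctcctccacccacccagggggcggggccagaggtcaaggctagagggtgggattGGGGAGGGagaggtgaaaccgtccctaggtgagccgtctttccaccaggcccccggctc
*Klf4* (chr4:55532426-55532725, minus strand): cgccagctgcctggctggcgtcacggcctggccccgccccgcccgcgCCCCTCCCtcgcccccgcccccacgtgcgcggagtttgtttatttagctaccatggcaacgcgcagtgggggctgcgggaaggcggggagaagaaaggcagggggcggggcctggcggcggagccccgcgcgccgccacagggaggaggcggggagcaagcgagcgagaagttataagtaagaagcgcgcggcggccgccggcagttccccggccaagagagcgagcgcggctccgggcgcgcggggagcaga
*Zfp42* (chr8:43306960-43307259, minus strand): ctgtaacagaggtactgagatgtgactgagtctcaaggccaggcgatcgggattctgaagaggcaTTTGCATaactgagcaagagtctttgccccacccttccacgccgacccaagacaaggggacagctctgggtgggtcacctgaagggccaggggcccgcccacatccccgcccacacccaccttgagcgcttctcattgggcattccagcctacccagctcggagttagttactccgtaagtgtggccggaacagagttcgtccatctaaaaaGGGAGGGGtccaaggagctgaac
*Nanog* (chr6:122707239-122707538, plus strand): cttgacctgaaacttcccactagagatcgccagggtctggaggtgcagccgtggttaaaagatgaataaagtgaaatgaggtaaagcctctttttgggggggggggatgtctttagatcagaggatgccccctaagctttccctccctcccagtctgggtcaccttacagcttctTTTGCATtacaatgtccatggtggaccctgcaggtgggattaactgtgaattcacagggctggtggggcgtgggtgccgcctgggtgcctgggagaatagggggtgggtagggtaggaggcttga
GGGAGGGG or GGGGAGGG, on either strand, was present in 3 of the 11 windows, those of *Klf4*, *Pou5f1* and *Zfp42*. The same strings were present in 15.9% of all 32851 windows. These strings overlap each other in sequence, and counted singly they were in 12.2% and 10.8% of windows. In *Pou5f1* the match began 9 bases before the RefSeq start site. In *Zfp42* it began 27 bases after the start. In *Klf4* it lay on the opposite strand, 203 bases before the start, so that it is printed as its reverse complement. The octamer-like string TTTGCAT, also on either strand, was in 4 of the 11 windows against 4.63% of all windows. It began 75 bases before the start in the *Nanog* window and 185 bases before it in *Zfp42*. The *Sox2* window held it on the opposite strand, 99 bases before the start, and the other match was in an overlapping second *Nanog* window. A match is a stretch of letters only, and no binding data were analysed here.

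Library depth was uneven within each genotype. Totals were 37573923 to 47721070 counts for replicates 1 and 2, but 11040756 (WT) and 11420268 (KO) for replicate 3. Replicate 3 also held more *Rn45s*, the ribosomal precursor, at 12.5% to 14.4% of counts against 1.79% to 3.03% in the other libraries. Counts were divided by library size factors to give normalized counts, used throughout. The members were far from the limit of counting, with 179 to 62994 raw counts per library. *Patz1* fell to 45.5% of WT, from 1888 ± 82.3 to 859 ± 5.01 normalized counts (mean ± SD, n = 3; DESeq2 adjusted p = 1.58e-26, log2 fold change -1.14, SE 0.10). The remaining *Patz1* reads say nothing of the protein. The gene lies on chromosome 11, whose 960 genes with a mean of at least 50 normalized counts had a median log2 fold change of -0.26.

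None of the 10 pluripotency factors differed between WT and KO at an adjusted p of 0.05 (DESeq2 Wald test of genotype alone). None had an unadjusted p under 0.05 either, and none was called by edgeR or by limma-voom. Among all genes tested, 7.49% were called by DESeq2 (1146 of 15309), 6.41% by edgeR and 7.94% by limma-voom, and 17.2% had an unadjusted DESeq2 p under 0.05. Log2 fold changes (KO over WT) of the members lay between -0.09 and 0.16, 9 positive and 1 negative. Their median was 0.11. Over all genes tested the median was 0.01 and 51.6% were positive, and over the 11522 genes with a mean of at least 50 normalized counts these values were 0.02 and 54%. The median absolute log2 fold change was 0.11 for the members and 0.13 for those 11522 genes. The 95% Wald intervals of the 10 genes ran from 0.791-fold to 1.39-fold at their extremes, so larger differences lay outside the interval of every member. In bulk RNA, a different share of cells in the naive state and a different amount of RNA per cell cannot be told apart.

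**Figure D1:**
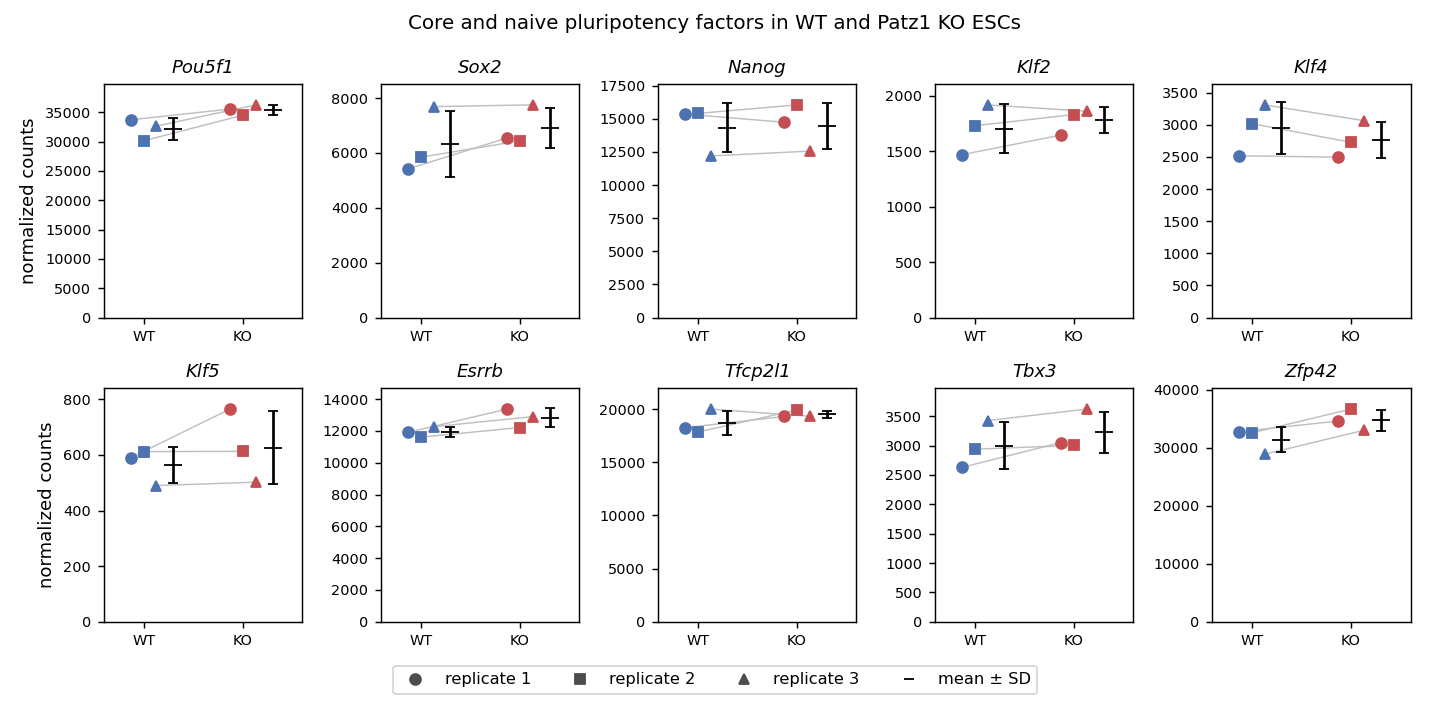
Normalized counts (y axis, from 0) of the 10 factors in WT and KO. Points are libraries, with shape for replicate number, grey lines join equal numbers, and black bars are the mean ± SD over 3 libraries. The genotypes are separate for *Pou5f1* and *Zfp42* and overlap for the other 8 genes.

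The core factors were among the most abundant of the set. *Pou5f1* (chromosome 17, 35506018 to 35510772, plus strand, GRCm38, protein coding) encodes the POU factor without which the pluripotent state is lost. In the order of their replicate numbers, WT libraries gave 33725, 30139 and 32663 normalized counts, and KO libraries gave 35551, 34506 and 36265. Every KO library was above every WT library, by a small margin, and the coefficient of variation was 5.73% in WT and 2.5% in KO. The log2 fold change was 0.14 (SE 0.09, 95% interval -0.03 to 0.31, DESeq2 adjusted p = 0.454).

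*Sox2* (chromosome 3, 34650405 to 34652461, plus strand) encodes the partner of OCT4. WT libraries held 5413, 5845 and 7689 normalized counts and KO libraries 6545, 6440 and 7751. Replicate 3 was the highest library in each genotype, and the genotypes overlapped. The log2 fold change was 0.13 (SE 0.14, 95% interval -0.14 to 0.40, DESeq2 adjusted p = 0.748). *Sox2* lies within the long noncoding gene *Sox2ot* on the same strand, with no exonic bases shared.

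*Nanog* (chromosome 6, 122707489 to 122714633, plus strand) encodes the homeodomain factor that in excess lets ESCs renew without LIF. Its values were 15354, 15404 and 12196 in WT, and 14742, 16049 and 12561 in KO. Replicate 3 was the lowest library of both genotypes. The means were 14318 ± 1838 and 14451 ± 1763 normalized counts (SD, n = 3), and the log2 fold change was 0.01 (SE 0.12, 95% interval -0.23 to 0.26, DESeq2 adjusted p = 0.982). *Nanog* and *Pou5f1* have processed copies elsewhere in the genome, and how reads that match several places were counted is not given in the sources used here.

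Among the naive factors, *Zfp42* (chromosome 8, 43295063 to 43306980, minus strand) was the other gene whose genotypes were separate. WT replicates held 32796, 32593 and 28909 normalized counts, and KO replicates held 34640, 36700 and 33044. The lowest KO library was thus just above the highest WT library. The log2 fold change was 0.15 (SE 0.09, 95% interval -0.04 to 0.33, DESeq2 adjusted p = 0.474). Of all genes tested, 25.6% had genotypes that did not overlap, as had 2 of the 10 members.

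*Esrrb* (chromosome 12, 86361117 to 86521628, plus strand) encodes an orphan nuclear receptor. It was the steadiest of the factors in WT, with 11904, 11603 and 12264 normalized counts, against 13371, 12214 and 12899 in KO. Only the highest WT library reached into the KO range. The log2 fold change was 0.11 (SE 0.09, 95% interval -0.06 to 0.27, DESeq2 adjusted p = 0.634). *Tfcp2l1* (chromosome 1, 118627945 to 118685168, plus strand) encodes a grainyhead-like factor downstream of LIF. Its WT libraries held 18247, 17836 and 19996 normalized counts and its KO libraries 19302, 19908 and 19323. The highest single library was a WT library, and the log2 fold change was 0.06 (SE 0.09, DESeq2 adjusted p = 0.837).

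The Krüppel-like factors overlap in function in ESCs. *Klf4* (chromosome 4, 55527143 to 55532466, minus strand) was the one member with a negative log2 fold change. It had 2518, 3019 and 3310 normalized counts in WT and 2497, 2728 and 3065 in KO. This gave a log2 fold change of -0.09 (SE 0.12, 95% interval -0.34 to 0.15, DESeq2 adjusted p = 0.826). *Klf2* (chromosome 8, 72319033 to 72321656, plus strand) had 1468, 1729 and 1917 in WT and 1645, 1830 and 1860 in KO. All 3 of its KO values fell inside the WT range, and the log2 fold change was 0.07 (SE 0.12, DESeq2 adjusted p = 0.885). *Klf5* (chromosome 14, 99298691 to 99315036, plus strand) was the least abundant member, with 590, 612 and 490 normalized counts in WT and 765, 613 and 502 in KO. Its log2 fold change was 0.16 (SE 0.16, 95% interval -0.16 to 0.47, DESeq2 adjusted p = 0.749). KO replicate 1 set this value, and without that library it was -0.02.

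*Tbx3* (chromosome 5, 119670669 to 119684724, plus strand) encodes a T-box repressor. Libraries held 2628, 2938 and 3425 normalized counts in WT, and 3051, 3001 and 3620 in KO. Replicate 3 was again the highest of each genotype, and the log2 fold change was 0.11 (SE 0.12, 95% interval -0.14 to 0.35, DESeq2 adjusted p = 0.784). *Pou5f1* and *Tbx3* each share exonic bases with an antisense gene, 317 and 115 of them. The libraries were stranded, but whether counting used the strand was not given in the sources used here, so reads from these partners cannot be told apart. *Tfcp2l1* shares 130 exonic bases with a small nuclear RNA gene, *Gm23497*, on its own strand, which strand use could not separate.

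Deviations from the genotype means correlated between libraries of equal replicate number, and a fit with the replicate number as a block was therefore compared. The deviations of the 3 libraries of a genotype sum to 0. A shift of replicate 3 shared by both genotypes would thus alone give positive correlations for replicates 1 and 2. Whether replicates 1 and 2 are truly paired was not tested. The block narrowed the SE of the members from between 0.086 and 0.162 to between 0.051 and 0.12. With it, DESeq2 called 2 of the 10 members, where it called 14.6% of all genes tested. *Pou5f1* had a blocked log2 fold change of 0.14 (95% interval 0.04 to 0.24, DESeq2 adjusted p = 0.0405), a ratio between 1.03 and 1.18. *Zfp42* had a blocked log2 fold change of 0.15 (95% interval 0.05 to 0.25, DESeq2 adjusted p = 0.0298), a ratio between 1.03 and 1.19. The edgeR fit with the same block called neither gene (adjusted p = 0.061 and 0.0511) nor any other member, while it called 24.9% of all genes tested. The calls on *Pou5f1* and *Zfp42* thus depended on both the block and the tool.

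**Figure D2:**
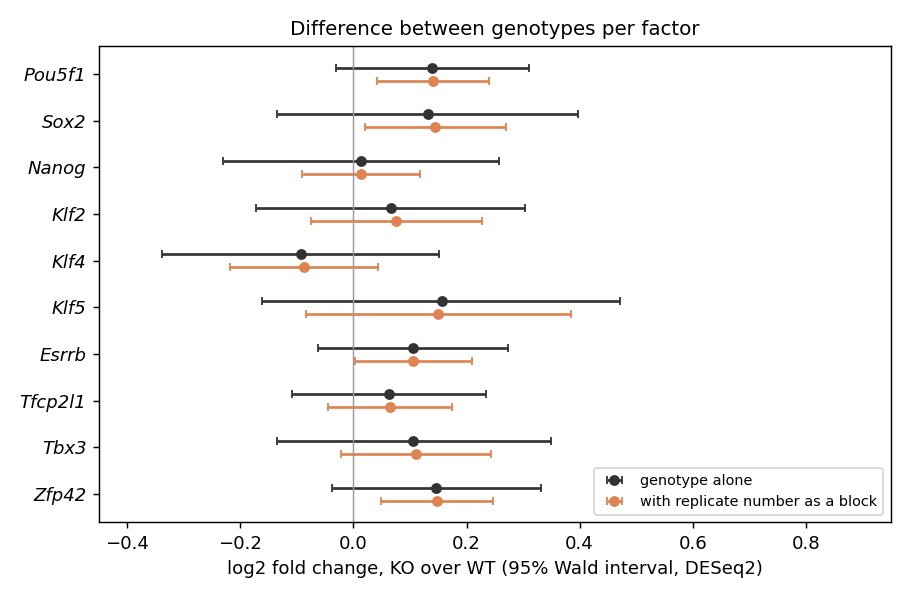
Log2 fold change of each factor, KO over WT (x axis), from DESeq2 with genotype alone (black) and with the replicate number as a block (orange). Bars are 95% Wald intervals without adjustment for multiple testing. All 10 black intervals include 0, and the orange intervals are narrower around nearly the same values, 4 of them (*Pou5f1*, *Sox2*, *Esrrb* and *Zfp42*) leaving out 0.

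Within pairs of equal replicate number, 6 of the 10 members were higher in KO in all 3 pairs, against 27.2% of all genes tested. These were *Pou5f1*, *Sox2*, *Klf5*, *Esrrb*, *Tbx3* and *Zfp42*, and *Klf4* was lower in all 3. The differences in *Pou5f1* were 0.08, 0.20 and 0.15 (log2 KO minus WT, pairs 1 to 3), and those in *Zfp42* were 0.08, 0.17 and 0.19. *Klf5* differed by 0.37 in pair 1 and by 0.00 and 0.04 in pairs 2 and 3. In *Sox2* the differences were 0.27, 0.14 and 0.01. The median over the 10 members was 0.12 in pair 1, 0.08 in pair 2 and 0.04 in pair 3, against 0.01, 0.02 and 0.02 over genes with a mean of at least 50. The members were not independent of one another in these pairs, as they share the libraries.

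Shifts of replicate 3 were set beside the genotype differences. A shift of 1 library from the mean of 2 is noisier than a difference of 3 libraries against 3, for any gene. In both genotypes, the shift of replicate 3 from the mean of replicates 1 and 2 exceeded the genotype difference for 6 of the 10 members, as it did for 44.1% of genes with a mean of at least 50. For 9 members the shift had the same sign in WT and KO, against 74.8% of those genes. *Sox2* was shifted by 0.45 (WT) and 0.26 (KO) on the log2 scale, and *Tbx3* by 0.30 and 0.26. *Klf4* was shifted by 0.26 and 0.23. *Nanog* was shifted the other way, by -0.34 and -0.29, and so were *Klf5* (-0.29 and -0.45) and *Zfp42* (-0.18 and -0.11). *Pou5f1* moved little, by 0.04 and 0.05. Thus *Sox2* was high and *Nanog* low in the same pair of shallow libraries, the ones rich in ribosomal RNA. The part of depth and of ribosomal RNA in these shifts was not tested.

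**Figure D3:**
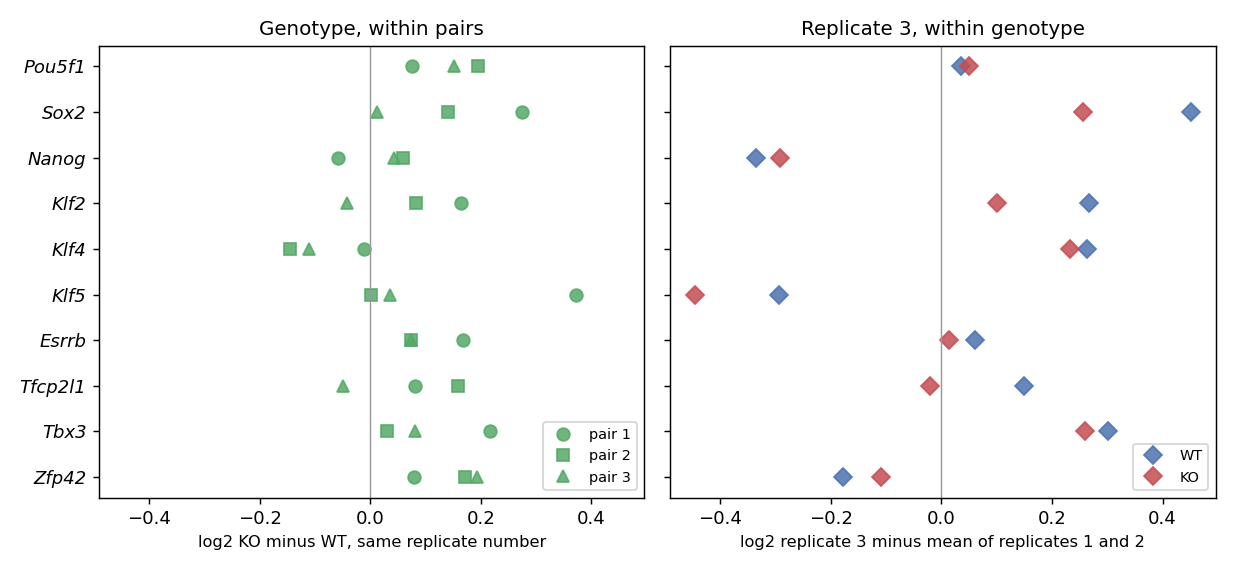
Left, log2 difference KO minus WT within each pair of equal replicate number. Right, log2 difference of replicate 3 from the mean of replicates 1 and 2 in WT (blue) and KO (red), on the same x axis. Points of both genotypes lie on the same side of 0 for 9 of the 10 factors at right.

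Ratios within a library do not depend on library scaling, so each factor was also set against *Pou5f1*. *Zfp42* ran at 0.972, 1.08 and 0.885 of *Pou5f1* normalized counts in WT and at 0.974, 1.06 and 0.911 in KO. *Nanog* ran at 0.455, 0.511 and 0.373 in WT and at 0.415, 0.465 and 0.346 in KO. *Sox2* ran at 0.161, 0.194 and 0.235 in WT and at 0.184, 0.187 and 0.214 in KO. Log2 differences of the 9 ratios, KO minus WT, lay between -0.23 and 0.01. The extreme was *Klf4*, at a geometric mean of 0.0912 in WT and 0.0777 in KO, with an exact two-sided permutation p of 0.3. All 9 adjusted p-values were 1, and 3 against 3 libraries cannot give a raw p under 0.1. Genotypes overlapped for all 9 ratios. Without WT replicate 1 they did not overlap for 3 of them, *Klf2*, *Klf4* and *Tfcp2l1*. Without any other single library this held for 0 of the 9. All 9 ratios share *Pou5f1* as the denominator, so they are not independent of one another. Within pairs of equal replicate number, 2 of the 9 ratios were lower in KO in all 3 pairs and none was higher in all 3. The denominator *Pou5f1* was itself higher in KO in all 3 pairs (0.08, 0.20 and 0.15). *Nanog* itself differed by -0.06, 0.06 and 0.04. Shares over all genes were not computed for such ratios. The *Nanog* ratio differed by -0.14, -0.14 and -0.11 (log2 KO minus WT, pairs 1 to 3) and the *Klf4* ratio by -0.09, -0.34 and -0.26. As 3 pairs cannot give an exact two-sided p under 0.25, these are values with no test.

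Levels were compared between genes as normalized counts per kb of merged exons, over all 6 libraries. *Zfp42* stood first at 17604 per kb and *Pou5f1* second at 15039, with overlapping library ranges (15369 to 19511 and 13407 to 16132). *Nanog* followed at 6416, then *Sox2* at 3215. *Esrrb* and *Tfcp2l1*, at 2047 and 2024, could not be ordered, nor could *Klf2* and *Klf4*, at 943 and 937. *Tbx3* was at 470 and *Klf5* last at 114, a 154-fold span from first to last. Among 19167 genes ranked by this level, the members lay between the percentiles 65.2 and 99.6. The median of genes with a mean of at least 50 was 153 per kb, so *Klf5* alone of the 10 lay below it. With the longest coding transcript as the length, *Pou5f1* (24822) came before *Zfp42* (18026).

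Most members stood above all the relatives listed for their protein family, lists that do not hold every gene of a family. *Pou5f1* was 127-fold above *Pou2f1* (encoding OCT1), the highest of 12 other POU genes listed, per kb, and *Sox2* was 30.7-fold above *Sox15*, the highest of 7 other SOX genes listed with counts (*Sox14* was at 0 in every library). *Esrrb* was 27-fold above *Esrra*, and *Zfp42* 59.5-fold above its relative *Yy1*. *Tbx3*, at 470 per kb, was 37.6-fold above *Tbx20*, the highest of 8 other *Tbx* genes listed. The T-box genes *Eomes* and *T*, which were in the marker lists instead, lay nearer to it, at 158 and 88.5 per kb. *Tfcp2l1* was 5.63-fold above *Ubp1*. The Krüppel-like family was different. *Klf2* and *Klf4* were only 1.86-fold and 1.85-fold above *Klf9*, at 506 per kb, and *Klf5* was below 7 of its 14 relatives, *Klf9* by 4.42-fold.

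**Figure D4:**
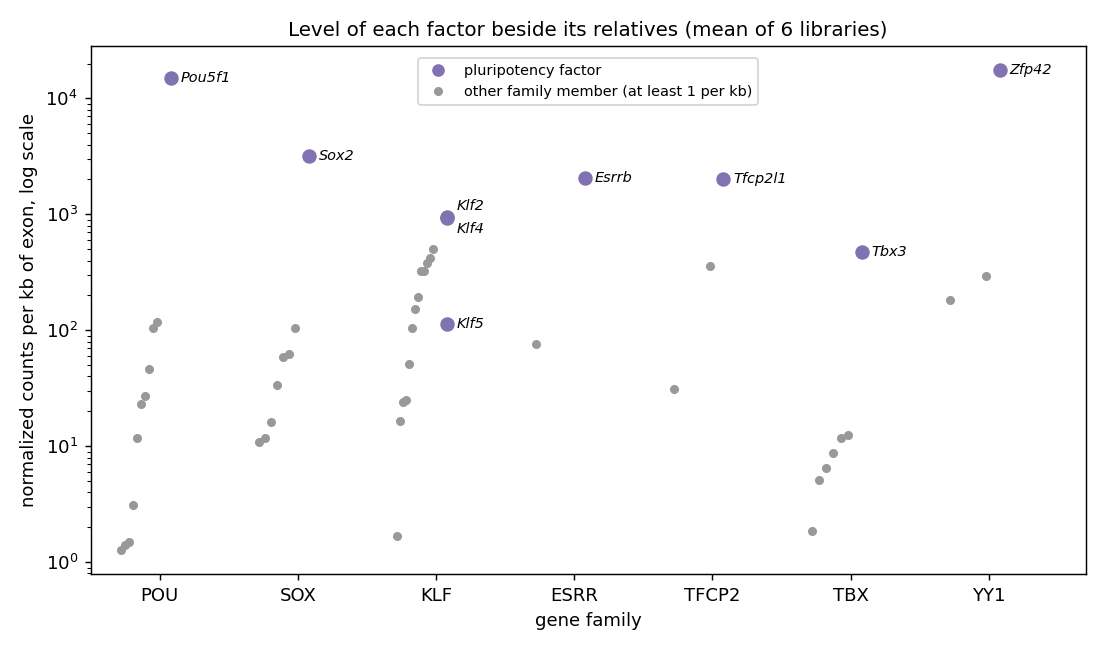
Normalized counts per kb of exon (log y axis, mean of 6 libraries) of the factors (purple) and of the relatives listed for each family (grey), with families along the x axis and relatives under 1 per kb left out. *Nanog* has no family list and is not drawn. *Klf5* lies among its listed relatives and the other factors drawn lie above theirs.

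Among the 48 relatives listed, 39 had an adjusted p and 3 were called by DESeq2, 1 higher and 2 lower, where 7.49% of all genes tested were called. Their median log2 fold change was -0.03. *Sox4*, an HMG-box factor of differentiating cells, rose from 159, 222 and 271 normalized counts in WT to 317, 387 and 444 in KO (log2 fold change 0.84, SE 0.20, adjusted p = 0.00121). Without WT replicate 1 its adjusted p was 0.0592. *Sox15*, the nearest relative of *Sox2* by level, fell from 113 ± 15 to 67.6 ± 9.2 (adjusted p = 0.0486, log2 fold change -0.72, SE 0.25). It lies on chromosome 11, whose 960 genes had a median log2 fold change of -0.26. *Tbx18* fell from 56.7 ± 9.6 to 25.5 ± 4.13 (adjusted p = 0.028, log2 fold change -1.10, SE 0.35). The calls on *Sox15* and *Tbx18* were lost on leaving out any one of the 6 libraries, with adjusted p up to 0.432 and 0.25. With the replicate block, 5 relatives were called, where 14.6% of all genes tested were, adding *Klf6* (log2 fold change 0.24, adjusted p = 0.0188) and *Yy2* (0.57, adjusted p = 0.000169), both higher. No member lies on chromosome 11 or on X.

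Partners of the circuit, its targets and the signals that feed it were read from lists of 20, 16 and 13 genes. Of the 20 partner regulators, among them *Sall4*, *Nr0b1*, *Nr5a2*, *Prdm14*, *Stat3* and *Tcf7l1*, DESeq2 called none (7.49% of all genes tested), and their median log2 fold change was 0.05. With the replicate block, which called 14.6% of all genes tested, 2 of them were called higher, *Sall1* (log2 fold change 0.29, adjusted p = 0.00335) and *Nr5a2* (0.23, adjusted p = 0.0127). Both encode zinc-binding DNA-binding factors, a SALL protein and a nuclear receptor.

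Of the 16 targets, 2 were called, both lower, where 7.49% of all genes tested were called, and the list median was -0.06. *Spp1*, which encodes the secreted protein osteopontin, held 14366, 10466 and 8978 normalized counts in WT and 4288, 4478 and 3932 in KO. The genotypes were far apart (adjusted p = 9.54e-19, log2 fold change -1.41, SE 0.15), and the call held on leaving out each library in turn. *Pecam1*, a surface adhesion protein of ESCs on chromosome 11, fell from 2323 ± 240 to 1839 ± 162 (adjusted p = 0.0467, log2 fold change -0.34, SE 0.12), a call kept only without WT replicate 3 (adjusted p up to 0.381 without another library). On all 6 libraries it was called neither by edgeR (adjusted p = 0.0782) nor by limma-voom (adjusted p = 0.0616). The block, with 14.6% of all genes tested called, gave 3 targets higher, *Fgf4*, *Tdgf1* and *Tcl1*, and 4 lower, *Spp1*, *Pecam1*, *Jam2* and *Lefty2*. *Fgf4* and *Tdgf1* encode ligands or co-receptors of the early embryo, with blocked log2 fold changes of 0.21 and 0.18 (adjusted p = 0.00964 and 0.00881). *Lefty2*, a Nodal antagonist, had the lowest blocked adjusted p among the targets after *Spp1* (log2 fold change -0.51, adjusted p = 5.75e-10) and was just outside the threshold without the block (adjusted p = 0.0525).

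Of the 13 signal genes, 12 had an adjusted p and 1 was called, where 7.49% of all genes tested were. *Axin2*, a feedback inhibitor and direct readout of WNT signalling, held 1371, 1085 and 1158 normalized counts in WT and 749, 635 and 687 in KO (log2 fold change -0.80, SE 0.13, adjusted p = 1.06e-07). It also lies on chromosome 11, where the median log2 fold change was -0.26, and its call held on leaving out each library in turn. *Lef1*, the other WNT gene of the list, was not called, with means of 64 (WT) and 66 (KO). Its log2 fold change was 0.02 (SE 0.32, DESeq2 adjusted p = 0.99). Whether WNT signalling as a whole differed between the genotypes was not tested. The LIF receptor chains *Lifr* and *Il6st* had log2 fold changes of -0.05 and -0.05, and *Socs3*, the feedback inhibitor that LIF induces, 0.09 (adjusted p = 0.935, 0.896 and 0.786). With the block, *Jak1*, the kinase of the LIF receptor, was called lower (log2 fold change -0.29, adjusted p = 0.0113) and *Dusp6*, a phosphatase induced by ERK, higher (0.49, adjusted p = 0.000315). Other ERK pathway genes of the list, *Spry2*, *Spry4*, *Etv4* and *Etv5*, were not called with it (blocked log2 fold changes -0.04, -0.04, -0.11 and 0.10). *Egr1* had no adjusted p, at 5.85 normalized counts in WT and 3.42 in KO. Over the 3 lists, the blocked fit thus called 12 of the 48 genes with an adjusted p, 6 in each direction, where it called 14.6% of all genes tested.

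The genes beside each member on its chromosome were also read. *Dppa3*, 77216 bases before *Nanog*, was the one neighbour called of 21 tested (7.49% of all genes tested were called), at 50.7 normalized counts in WT and 24 in KO (log2 fold change -1.08, SE 0.36, adjusted p = 0.0375). It encodes a protein of the oocyte and early embryo that protects maternal DNA methylation. Its call was lost without any library but WT replicate 3 (adjusted p up to 0.312). With the replicate block, 4 of 20 neighbours were called, where 14.6% of all genes tested were. They were *Dppa3* (adjusted p = 0.0463), *Rad23b* before *Klf4* (adjusted p = 0.00448, 0.257 without the block), *Dnajc19* before *Sox2* (0.0193, 0.461 without it) and *Slc2a3* after *Nanog* (0.041, 0.44 without it). The last 3 had log2 fold changes of 0.18, 0.21 and 0.15.

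Over the 6 libraries, the genes whose log2 normalized counts followed *Pou5f1* most closely, of 11523 compared, were *Tomm7* (Pearson r = 0.9887), *Akr1b8* (0.9875) and *Gcc2* (0.9844). These are the top of many comparisons over few libraries, 3 of each genotype, and are given as a description. Among the other members *Esrrb* came nearest (0.823), and the rest lay between -0.364 (*Klf4*) and 0.553 (*Tfcp2l1*).

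Markers of other cells that ESC cultures can hold were read as summed normalized counts, which for the members ran from 121718 to 124643 in WT and from 130891 to 133990 in KO. Calls in these lists stand against 7.49% of all genes tested, or 14.6% with the replicate block. Fibroblast markers (8 genes) summed to between 92.1 and 122 in WT and between 159 and 227 in KO, with *Thy1* and *Acta2* called higher. The collagens *Col1a1*, *Col1a2* and *Col3a1* had 9.16, 6.49 and 1.28 normalized counts in KO, against 11.5, 10.8 and 0.191 in WT. *Postn*, *Lum* and *Dcn* were at or near 0 in both genotypes, with means of at most 1.29 normalized counts. Primitive endoderm markers (6 genes) summed to 133 to 189 and 160 to 214. Of these *Dab2* was called higher (32.6 to 78.7 normalized counts), while the other 5 had log2 fold changes from -0.83 to -0.01 and the list median was -0.15. Of 5 formative markers, *Otx2*, a factor of cells leaving the naive state, rose from 45 ± 1.42 to 121 ± 6.35 (adjusted p = 7.56e-07, log2 fold change 1.45, SE 0.25). The other 4 were not called, and the list median was -0.08. *Pou3f1* had a log2 fold change of -0.62 and *Fgf15* of -0.32, *Fgf5* had 1.76 and 4.78 normalized counts, and *Dnmt3b* 2211 and 2474. The formative list summed to 2176 to 2763 and 2331 to 2867, most of it *Dnmt3b*. Of 6 trophoblast markers, 4 had an adjusted p, and *Krt8* and *Cdx2* were called lower, with sums of 1553 to 1805 and 1256 to 1379. *Eomes* (log2 fold change -0.19) and *Krt18* (0.15) were not called. *Elf5* and *Hand1* had no adjusted p and means of at most 4.41 normalized counts. Only 4 of the 6 primitive streak markers and 4 of the 6 neural markers had an adjusted p, and none of those was called (sums 250 to 376 against 235 to 330, and 3809 to 4701 against 4009 to 5079). *Foxa2*, a streak and endoderm factor with no adjusted p, had no counts in WT and 12.4, 4.15 and 5.29 normalized counts in the KO libraries. Of 7 markers of 2-cell-like cells, 3 were called lower (sums 341 to 1940 against 92 to 313), and 6 were with the block. The calls on *Thy1*, *Dab2*, *Cdx2* and these 3 (*Tcstv1*, *Tcstv3* and *Zfp352*) were each lost without WT replicate 2, among other libraries (adjusted p = 0.0518 to 0.475 without it). Limma-voom called none of *Tcstv1*, *Tcstv3* and *Zfp352* (adjusted p = 0.112, 0.171 and 0.0713), and edgeR called *Tcstv3* (0.0454) but not *Tcstv1* (0.0725) or *Zfp352* (0.0506). The part of such cells in the members' values was not tested.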

How the data were processed

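The 3 WT and 3 *Patz1* KO libraries were stranded and made from total RNA after ribosomal depletion (Ribo-Zero Gold). The authors deposited raw read counts per gene symbol, 1 file per library, mapped to mm10. The submitters' processing notes name TopHat2 (2.1.1), Bowtie2 (2.3.1.0), featureCounts (1.6.2) and DESeq2, with no roles. The paper's methods name a different version of Bowtie2 for mapping, and DESeq2 for differential expression. Annotation, strand setting and duplicate handling are not given in the sources used here.

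Counts were tested across all genes with the two-sided Wald test of DESeq2 (1.42.0), with median-of-ratios size factors, genotype alone, default independent filtering and Benjamini-Hochberg adjustment (threshold 0.05). Alternatives used edgeR (4.0.16), limma-voom (limma 3.58.1), other size factors, a filter of 10 counts in 3 libraries, a block on replicate number, no independent filtering, and leaving out libraries. Code was tested on simulated data. Replicate numbers come from the sample titles, and deviations of same-numbered libraries from genotype means correlated at 0.469, 0.619 and 0.684 over 11524 genes. The study calls the replicates biological and defines such replicates as independent differentiation experiments, which does not say how those of undifferentiated ESCs were separated, so p-values measure the spread between these libraries. Positions came from GENCODE M21 (GRCm38, 23055 of 23420 symbols matched, 1278 by an older symbol) and promoters from RefSeq. Intervals from counts cover the model's error only.

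The members and gene lists were chosen with earlier results of these data known. Besides the 10 members and *Patz1*, the genes named with their values by rule were those of the partner, target, signal and relative lists under the threshold (at most 5 a list), the relative with the highest level in each family list, called neighbours, and the 3 genes most like *Pou5f1*. List and marker genes named beyond that rule (block calls, other signal genes, markers) were chosen after their values were seen.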

Additional observations from a re-analysis of the deposited data

How the results depend on the processing

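Of 150 recomputed member fold changes (10 members, 15 alternatives), 142 kept their direction and side of the threshold, 2 passed it (*Pou5f1* and *Zfp42* with the replicate block) and 6 turned sign without being called. Outside the block fits, member adjusted p-values lay between 0.0758 and 0.999 (DESeq2, edgeR or limma-voom). The sign turned for *Nanog* with size factors from genes outside chromosomes 11, X and Y (-0.0035). Leaving out 1 library gave *Nanog* -0.091 to 0.106, *Klf2* -0.035 to 0.149 and *Klf5* -0.016 to 0.276 (log2). The negative values came without KO replicate 1, KO replicate 2 or WT replicate 3 (*Nanog*), WT replicate 1 (*Klf2*) and KO replicate 1 (*Klf5*). The other members kept their sign, at 0.030 to 0.291 for *Sox2* (lowest without WT replicate 1, highest without WT replicate 3), -0.199 to -0.0093 for *Klf4* (without WT replicates 1 and 3), 0.018 to 0.205 for *Tbx3* (without WT replicates 1 and 3), 0.030 to 0.110 for *Tfcp2l1* (without WT replicates 2 and 3), 0.087 to 0.185 for *Zfp42* (without WT replicate 3 and KO replicate 3), 0.095 to 0.174 for *Pou5f1* and 0.074 to 0.141 for *Esrrb*.

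The replicate block in DESeq2 called 2 members (0 without it), 2131 of all genes (1146 without it), 12 partner, target and signal genes (3 without it) and 5 relatives (3 without it). With the replicate block in edgeR these were 0, 3739, 14 and 10. Leaving out 1 library called 583 to 1341 genes, 2 to 4 partner, target and signal genes and 0 to 2 relatives, and left 0 to 3 ratios to *Pou5f1* whose genotypes did not overlap. The lowest of these gene counts, 583, came without KO replicate 1, with 590, 605 and 664 without KO replicate 2, WT replicate 1 and WT replicate 2. No relative was called without WT replicate 1. Protein sequences of the members were not compared here.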
